A study of Mus musculus with 797 samples.

Results

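The nuclei described here are 19 GABAergic nuclei that carried a reporter driven by CMV, set against 188 GABAergic nuclei that carried other vectors. They were chosen from 1 set of libraries by their own counts. A nucleus entered with at least 50000 gene reads, at least 1000 genes, Gad1 plus Gad2 of at least 10 CPM, which is the count divided by the gene reads of the nucleus and scaled to 1000000 reads, and Slc17a7 under 10 CPM. Gad1 and Gad2 encode the enzymes that make GABA, and Slc17a7 encodes the vesicular glutamate transporter of most cortical excitatory neurons. Of 528 labelled nuclei in the set 516 passed the limits on depth, and 219 of these were GABAergic. The 12 GABAergic nuclei of vectors with fewer than 10 such nuclei were left out, so the comparison used 207 nuclei, out of 797 in the whole series.

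In the study, nuclei were flow sorted from C57Bl/6J mice for the yellow fluorescence of H2B-SYFP2, a histone-tagged protein that stays in the nucleus. Each nucleus was made into its own full-length cDNA library with SMART-Seq v4. All groups shared the mouse strain, the AAV capsid PHP.eB, the dose of 5e11 vector genomes per mouse, the reporter, the 3 to 4 weeks between injection and sorting, and the tissue label striatum. They differed in the element that drove the reporter: CMV, the elements hI56i and DLX2.0, or the enhancers AiE0390m, AiE0450h, AiE0452h, AiE0475m, AiE0600m, AiE0682h and AiE0743m_3xC2. There was no uninjected or empty-vector group, so every comparison is between vectors. The labels name no animal, so each vector was treated as 1 sample, no test was run, and no difference below has a replicate check.

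As background, the CMV element is the immediate-early enhancer and promoter of a cytomegalovirus. It binds cyclic AMP-responsive, NF-kappaB, Sp and retinoid-responsive factors, drives transgenes in many cell types, and is known to be silenced over time in some of them through DNA methylation and repressive chromatin. The elements hI56i and DLX2.0 come from the Dlx genes and are used to reach forebrain GABAergic neurons. Such neurons in cortex and striatum include fast-spiking Pvalb cells and Sst cells, which arise in the medial ganglionic eminence (MGE), and Vip, Sncg and many Lamp5 cells, which arise mainly in the caudal one (CGE).

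CMV nuclei were neither shallow nor deep among these libraries. They held 262149 to 432838 gene reads with a median of 342941, while the medians of the 9 other vectors lay between 174863 and 384002. The median number of genes was 3068 with CMV and 2742 to 3388 with the others. After each nucleus was thinned to 50000 reads it was 2690 against 2467 to 3003. Mitochondrially encoded transcripts made up 0.0113% of the CMV reads and 0.0021 to 0.0332% of the reads of the others. No pair of nuclei had identical counts.

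Among the CMV nuclei that passed on depth, 19 of 24 met the GABAergic rule (79.2%, Clopper-Pearson 95% interval 57.8 to 92.9), and the other vectors gave 46.9 to 91.7%. Inside the rule, Gad1 plus Gad2 ran from 130 to 5230 CPM in CMV nuclei with a median of 1324, and no CMV nucleus had a read of Slc17a7. All 5 CMV nuclei outside it had Slc17a7 at 84.6 CPM or more, and 1 of them also had no read of Gad1 or Gad2. These values chose the nuclei and are given as a description. Intervals here and below cover counting error only.

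The tissue label was set against marker lists. Ppp1r1b, Drd2 and Adora2a, which mark the spiny projection neurons that make up most of the striatum, had no read in any CMV nucleus, and 8 of the 11 genes of that list were at 0. The others were Drd1, the dopamine receptor gene of the direct pathway, with reads in 2 of 19 CMV nuclei and 64.7 CPM in the sum, Adcy5 (2 nuclei, 16.1 CPM) and Rarb (1 nucleus, 20.6 CPM). The other vectors were alike: Ppp1r1b had no read in any of them, Drd2 was read in 0 to 4.76% of their nuclei and Drd1 in 0 to 20%. The summed level of the list was 101 CPM with CMV and 41.4 to 138 CPM with the others. All 5 markers of cholinergic neurons were at 0 with CMV, as were all 5 of oligodendrocyte precursors and all 5 of microglia. Aqp4 and Gfap of astrocytes, Mog of oligodendrocytes and Cldn5 of endothelium were also at 0. The astrocyte list summed to 107 CPM in CMV nuclei (4.47 to 166 in the others) and the oligodendrocyte list to 122 CPM (31.3 to 250). The glutamatergic list summed to 20.9 CPM, below the 27.9 to 108 CPM of the other vectors, with Slc17a7, Neurod2, Neurod6 and Tbr1 at 0. A count of 0 among 19 nuclei allows a share of up to 15.8% of nuclei with a read, taking 3 nuclei of the total as the limit, or 17.6% as the Clopper-Pearson upper bound.

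Reads from sex chromosomes were not spread alike over the vectors. Of the 19 CMV nuclei 18 had a read of a Y-linked gene (Ddx3y, Uty, Eif2s3y or Kdm5d), none had a read of Xist, the RNA of the inactive X chromosome, and 1 had neither. Among the other vectors 5 included nuclei with Xist and nuclei with Y-linked reads under 1 label. The counts of genes apart, the differences of the 30 named genes and the list medians were therefore also computed in nuclei with a Y-linked read and no Xist read. For the other results below, the part of this imbalance was not tested.

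Most CMV GABAergic nuclei resembled Pvalb interneurons. Each nucleus was assigned to the list of type markers (Pvalb, Sst, Vip/Sncg or Lamp5) with the highest mean level, where it led by at least 0.5 on the log2 scale. The Pvalb list took 12 of the 19 CMV nuclei (63.2%), within the 35 to 82.4% of the other vectors. The Sst list took 2 (10.5%), below the 15 to 52.4% of every other vector. The nearest, AiE0452h, had 3 of its 20 nuclei on that list, too close to be told apart at these numbers. The Vip/Sncg and Lamp5 lists took 2 each, against 0 to 19.2% and 0 to 20% of the nuclei of the others, and 1 CMV nucleus was not assigned. For 1 CMV nucleus the highest list led the next by under 1.

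Reads of single markers lay mostly inside the range of the other vectors, Sst included, unlike the share of the Sst list. Pvalb, the calcium-binding protein that names the fast-spiking class, was read in 13 of 19 CMV nuclei (68.4%, 43.4 to 87.4), and in 40 to 70.6% of the nuclei of the other vectors. Sst was read in 36.8% of CMV nuclei (16.3 to 61.6) and 23.5 to 52.4% of the others. Its summed level was lower in CMV nuclei than in any other vector, at 446 CPM against 694 to 2576. Vip was read in 10.5% (1.30 to 33.1) and Lamp5 in 15.8% (3.38 to 39.6), both inside the range of the others. Lhx6, a transcription factor of the MGE lineage, was read in 42.1% of CMV nuclei, next to a highest value of 41.2% elsewhere, and Gad1 in 89.5%, next to a lowest value of 90%. With intervals this wide, none of these shares could be told from the nearest other vector at this number of nuclei.

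**Figure D1:**
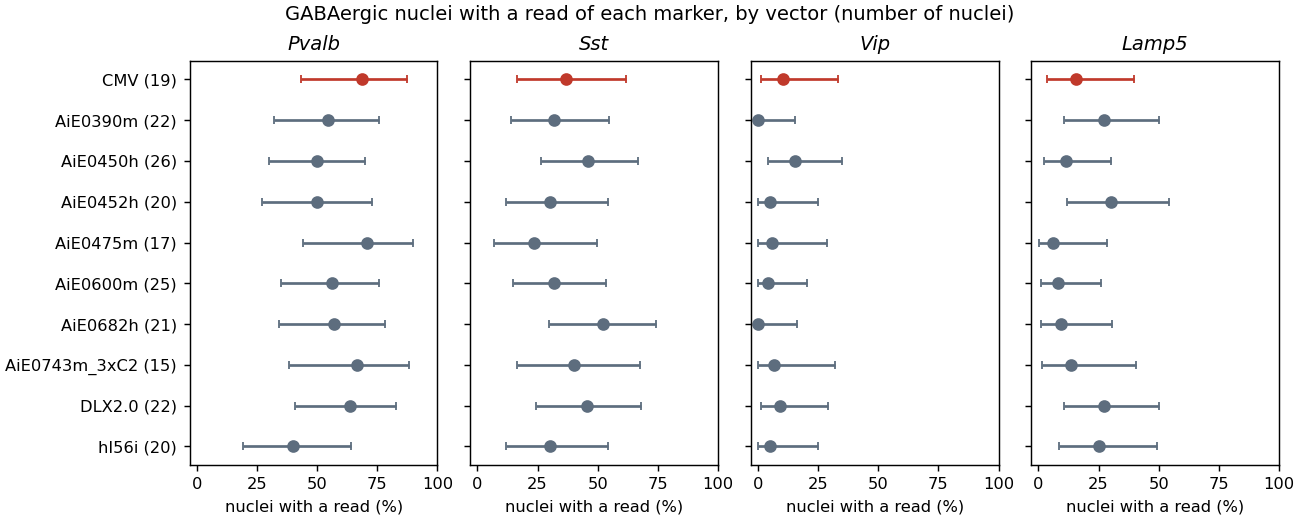
Percentage of GABAergic nuclei with at least 1 read of Pvalb, Sst, Vip or Lamp5 for each vector (number of nuclei in brackets); points are shares and bars exact 95% intervals, with CMV in red. The CMV share of 68.4% for Pvalb is exceeded by 1 other vector, and all 4 CMV shares lie inside the range of the others.

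Levels were then compared gene by gene. A level is the mean over the nuclei of a vector of log2(CPM+1), and the difference is the CMV level minus the mean level of the 9 other vectors, each with equal weight. A gene was called apart where this difference was at least 1 in size and the CMV level lay outside the levels of all 9 others. Of 6986 genes with a mean level of at least 1 over the 10 vectors, 490 were apart and higher in CMV nuclei (7.01%) and 488 were apart and lower (6.99%), 14% in either direction. Being chosen as outside the range, these genes show no overlap with the other vectors by construction. The median difference over all 6986 genes was -0.05, and 90% of genes lay between -1.28 and 1.34.

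The 14% is not particular to CMV. With AiE0450h in the place of CMV 9.06% of the same genes were apart (3.19% higher and 5.87% lower), and with AiE0475m 21.1% (16.4% higher and 4.71% lower). CMV thus stood between these vectors, with as many genes above as below. The median gene span was 30.5 kb for the higher genes, 34.6 kb for the lower ones and 28.9 kb for all genes tested. Whether these lengths differ was not tested. Adding 10 instead of 1 before the log left 151 higher and 100 lower genes, which gives less weight to whether a nucleus has a read at all.

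The 15 genes named in each direction are those with the largest differences among the genes apart whose CPM, summed over nuclei, also differed by at least 2-fold the same way. A total of 217 higher and 349 lower genes met both conditions. They are ordered below by what each gene is known to do, and no role was tested for enrichment among them.

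Rhbdd3, a rhomboid-domain membrane protein, stood furthest above the other vectors. Its level was 4.51 ± 4.18 in CMV nuclei (mean and SD, 19 nuclei) and 0.49, 1.56 and 1.92 as the lowest, median and highest level of the other vectors, a difference of 3.17. A read was present in 11 of 19 CMV nuclei (57.9%, 33.5 to 79.7) and in 35 of 188 other nuclei. The shares of the other vectors were 9.52 to 25%. Summed over nuclei, Rhbdd3 was at 235 CPM with CMV (Poisson 95% interval 223 to 247) and 9.35 to 123 CPM with the others. The gene lies at chr11:5098926-5106093 (mm10, plus strand) and overlaps Ewsr1 on the opposite strand. Such Poisson intervals treat PCR copies as independent reads and are too narrow.

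Of the next genes, those known from vesicle traffic are given first. Rab28, a small GTPase of the photoreceptor and ciliary pathway (chr5:41624976-41708157, minus strand), was at 4.71 ± 4.2 with CMV and at 0.88 to 2.45 with the others (difference 2.92), with reads in 11 of 19 and 50 of 188 nuclei. Rab5b, a GTPase of early endosomes, was at 4.00 against 0.41 to 2.10 (2.7). Dctn4, a subunit of the dynactin complex that links dynein to its cargo, was at 5.55 against 1.18 to 4.53 (2.60). Optn, the autophagy receptor optineurin, was at 3.52 against 0.21 to 2.35 (2.33). The antisense transcript Rab10os was at 6.16 against 1.97 to 5.13 (2.7), but it overlaps Rab10, and the strand setting of the counts is not given in the sources used here, so reads of the pair cannot be told apart.

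Enzymes, signalling proteins and transporters follow. Usp40, a ubiquitin-specific protease (chr1:87945119-88008551, minus strand), was at 5.54 ± 3.90 in CMV nuclei and 1.37 to 3.99 elsewhere (2.82), with reads in 14 of 19 CMV nuclei. The kinase Stk16 was at 3.66 against 0.30 to 2.26 (2.65), and the guanine nucleotide exchange factor Arhgef3 at 5.13 against 1.69 to 3.42 (2.63). Stk16 was read in 8 of 19 CMV nuclei and 26 of 188 others. Slc7a1, a transporter of cationic amino acids, was at 3.76 against 0.36 to 2.28 (2.39). For Uqcrfs1, the Rieske iron-sulfur subunit of respiratory complex III, the gap to the nearest other vector was small: 5.46 with CMV against 1.10 to 5.18 (2.43).

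The remaining higher genes act in the nucleus or have less settled roles. Suds3, a subunit of the Sin3 histone deacetylase complex, was at 4.60 against 1.24 to 3.27 (2.36). Prpf6, a spliceosome component, was at 5.03 against 1.48 to 3.63 (2.34). Tm2d2 was at 4.66 against 1.53 to 3.49 (2.41), and 1110051M20Rik at 5.40 against 1.75 to 3.79 (2.40). In every one of these 15 genes the CMV level exceeded all 9 others, as the rule requires.

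Psmc3, an ATPase subunit of the proteasome's regulatory particle, stood furthest below. Its level was 0.64 ± 2.08 in CMV nuclei, and 2.47, 3.95 and 4.68 as the lowest, median and highest of the other vectors, a difference of -2.97. Reads were found in 2 of 19 CMV nuclei (10.5%, 1.30 to 33.1) and in 88 of 188 others, with shares of 31.8 to 56% per vector. Summed over nuclei it was at 21.7 CPM (18.3 to 25.5) with CMV and 65.8 to 265 CPM with the others. The gene lies at chr2:91054009-91066369 (mm10, plus strand) and overlaps Slc39a13 on the opposite strand.

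Of the lower genes, those known from vesicles and secretion are given next. Rab27b, a GTPase of secretory vesicles, was at 0.61 ± 1.87 against 1.10 to 5.47 (difference -2.76), with reads in 2 of 19 and 78 of 188 nuclei. Rab3b, a GTPase of synaptic vesicles, was at 3.84 against 5.34 to 7.17 (-2.31). Scamp1, a carrier protein of secretory membranes, was read in 1 of 19 CMV nuclei and 63 of 188 others (0.34 against 1.30 to 3.83, -2.28). Dop1a, which acts in traffic between endosomes and Golgi, was at 1.30 against 3.23 to 4.91 (-2.56). Atp6v1c1, a subunit of the proton pump that acidifies vesicles, was at 3.13 against 4.67 to 7.09 (-2.42).

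Among the other lower genes, Nek1, a kinase of cilia and DNA damage signalling (chr8:60993195-61131346, plus strand), was at 3.01 ± 3.99 with CMV and 4.55 to 7.22 with the others (-2.89). Selenos, a selenoprotein of endoplasmic reticulum quality control (chr7:66079649-66089405, plus strand), was at 1.14 against 2.79 to 5.21 (-2.67). Ndn, the imprinted gene of necdin that is read from the paternal allele, was at 0.46 against 1.90 to 3.55 (-2.43). Ndn reads were seen in 1 of 19 CMV nuclei and 61 of 188 others. The adhesion protein gene Cdh13 was at 1.35 against 2.88 to 5.21 (-2.61), and Tcaf1, a partner of TRP channels, at 1.5 against 2.82 to 5.37 (-2.35). Atp5mpl, a small subunit of ATP synthase, was at 1.31 against 2.39 to 5.36 (-2.33), and Ankrd16 at 0.48 against 1.77 to 4.32 (-2.32). Mrfap1 was at 0.66 against 1.58 to 3.76 (-2.23) and Fau, which encodes a ribosomal protein fused to a ubiquitin-like domain, at 0.30 against 1.80 to 3.47 (-2.21). Fau belongs to a family with processed copies in the genome, so its count is uncertain. In all, 14 of the 30 named genes overlap another counted gene.

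**Figure D2:**
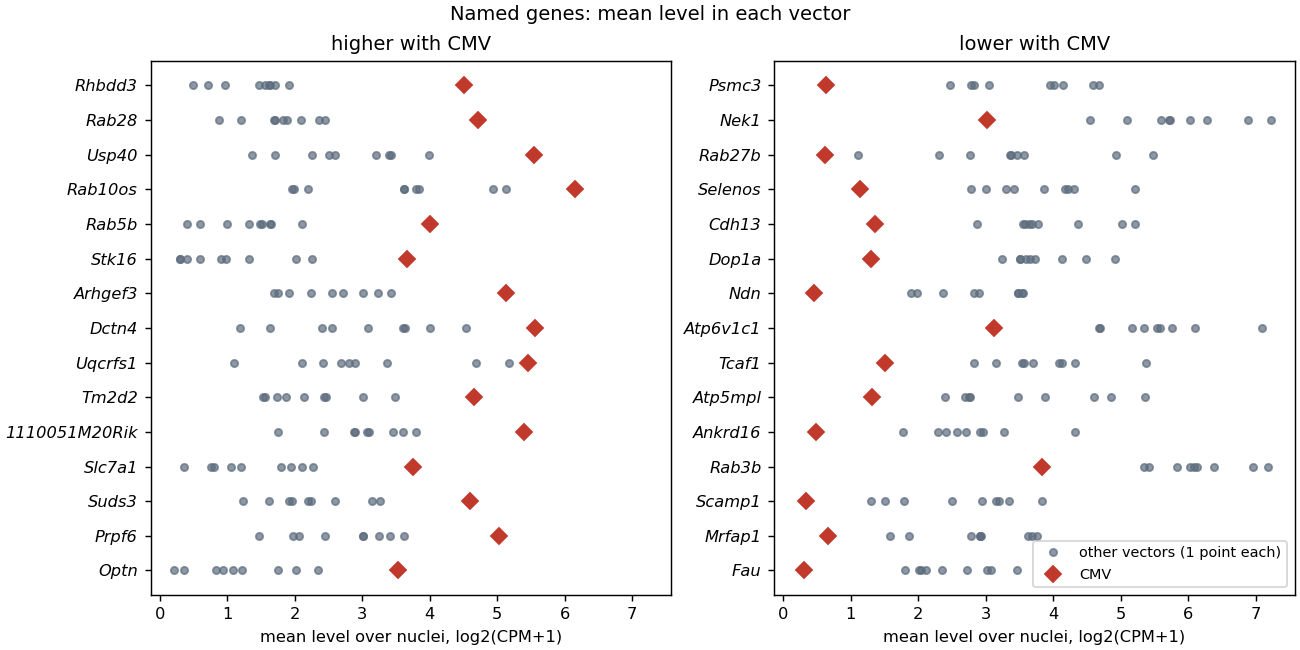
Mean level, log2(CPM+1), of the 15 named genes higher and the 15 lower in CMV GABAergic nuclei; each grey point is 1 of the 9 other vectors and the red diamond is CMV. The diamond lies outside the grey points in every row because the genes were chosen for that, closest to them for Uqcrfs1 (5.46 against 5.18) and Rab27b (0.61 against 1.10).

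Single nuclei varied far more than vector means. Each mean of the other vectors averages 15 to 26 nuclei and so varies less by averaging alone, and the 2 spreads were not compared beyond that. For 23 of the 30 named genes the difference was smaller than the SD over the CMV nuclei. For 29, all but Rhbdd3, it was smaller than the SD over the nuclei within another vector, taken as the median of the 9 vectors. All 30 differences were larger than the SD between the 9 other vectors, as genes chosen from the extremes must tend to be. Nuclei either had no read of a gene or had it at a level well above 0. Among nuclei with a read, Rhbdd3 had a median level of 8.34 with CMV and 8.16 with the others, and Usp40 8.34 and 8.13. The differences of Rhbdd3 and Usp40 thus lay mostly in how many nuclei had a read. For other genes the medians with CMV and with the others also differed: 8.44 and 7.28 for Rab28, 9.15 and 8.41 for Rab10os. They were 8.40 and 8.93 for Nek1, 7.04 and 8.25 for Selenos (3 CMV nuclei), and 6.06 and 8.24 for Psmc3 (2 CMV nuclei). Rab27b likewise differed in both respects. Its 2 CMV nuclei with a read were at 4.89 and 6.78, and the median of the 78 other nuclei with one was 8.61.

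Reads of the named genes were also counted nucleus by nucleus, as a description of the nuclei that chose them. Each CMV nucleus had reads of 4 to 13 of the 15 higher genes with a median of 9, while the 188 other nuclei had 0 to 11 with a median of 4. For the 15 lower genes CMV nuclei had reads of 0 to 6 with a median of 2, and the others 1 to 13 with a median of 7. The ranges of single nuclei therefore overlapped in both directions.

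**Figure D3:**
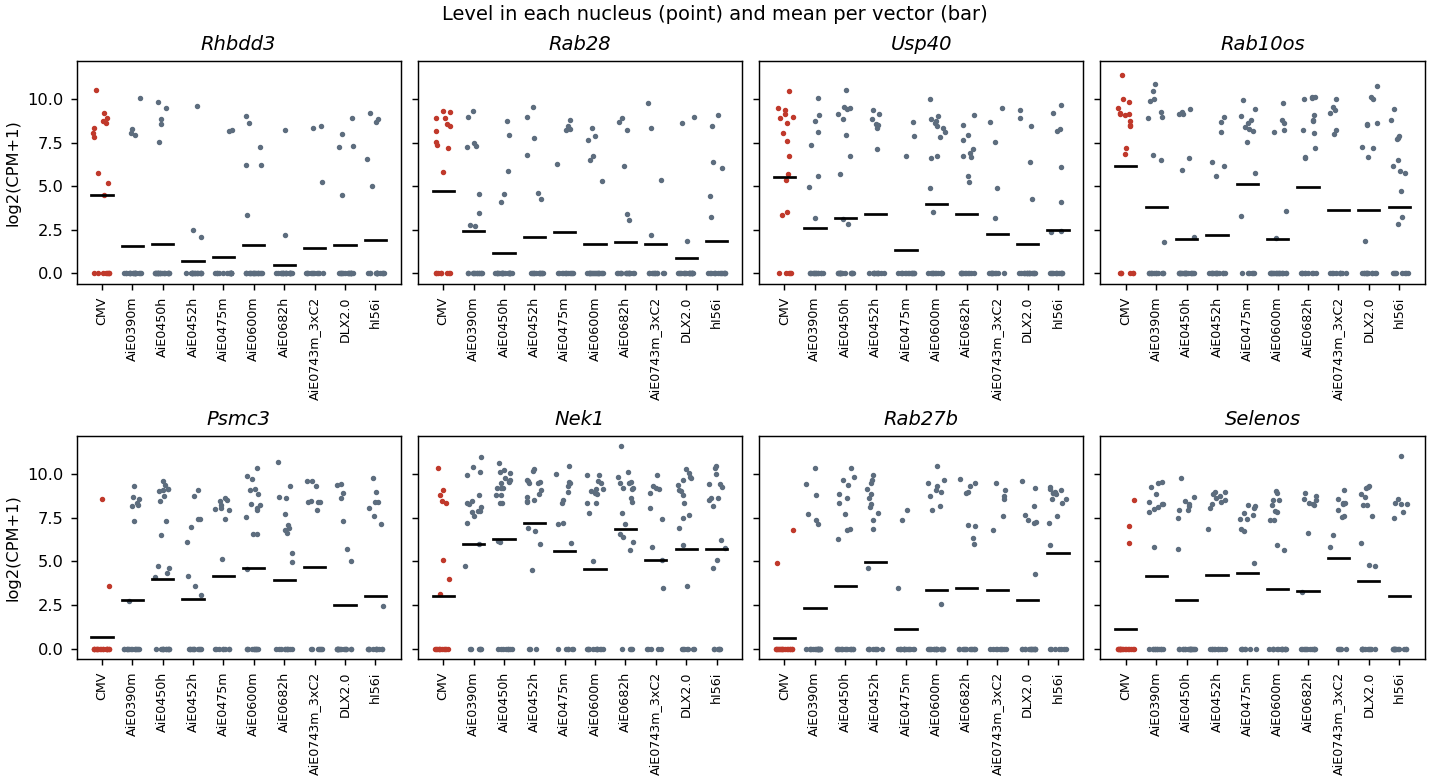
Level, log2(CPM+1), in each nucleus (points, CMV in red) and mean per vector (black bars) for the 4 genes with the largest positive and the 4 with the largest negative difference. Points at 0 are nuclei without a read: 8 of 19 CMV nuclei for Rhbdd3 and 17 of 19 for Psmc3.

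Since the vectors differed in their mix of interneuron types, the comparison was repeated within the nuclei assigned to the Pvalb list, 12 of them from CMV. In these, 508 genes were apart and higher (7%) and 521 apart and lower (7.18%) of 7261 tested, 14.2% in either direction. Of the genes apart over all nuclei, 231 higher and 230 lower ones were also apart here. The sign was the same for 476 of the 490 higher and 481 of the 488 lower genes. It was also the same for 428 and 466 of them in the nuclei outside the Pvalb list, although both sets of nuclei are parts of the whole that chose the genes.

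All 30 named genes kept their sign in both subsets, which are parts of the nuclei that chose these genes. In Pvalb-list nuclei 11 of the 15 higher genes and 14 of the 15 lower genes remained apart. Rab10os (difference 1.61), Arhgef3 (2.07), Uqcrfs1 (2.65), Prpf6 (1.14) and Atp5mpl (-2.20) came inside the range of the other vectors. Usp40 had the largest positive difference there (3.68) and Dop1a the largest negative one (-3.43). The comparison was also made with only nuclei with a Y-linked read and no Xist read, which left 18 CMV nuclei and 7 other vectors. Of the 30 genes 29 remained apart there, and Scamp1 (-2.01) did not. These 18 nuclei are also among those that chose the genes, so this is no independent check on the imbalance of sex-chromosome reads.

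**Figure D4:**
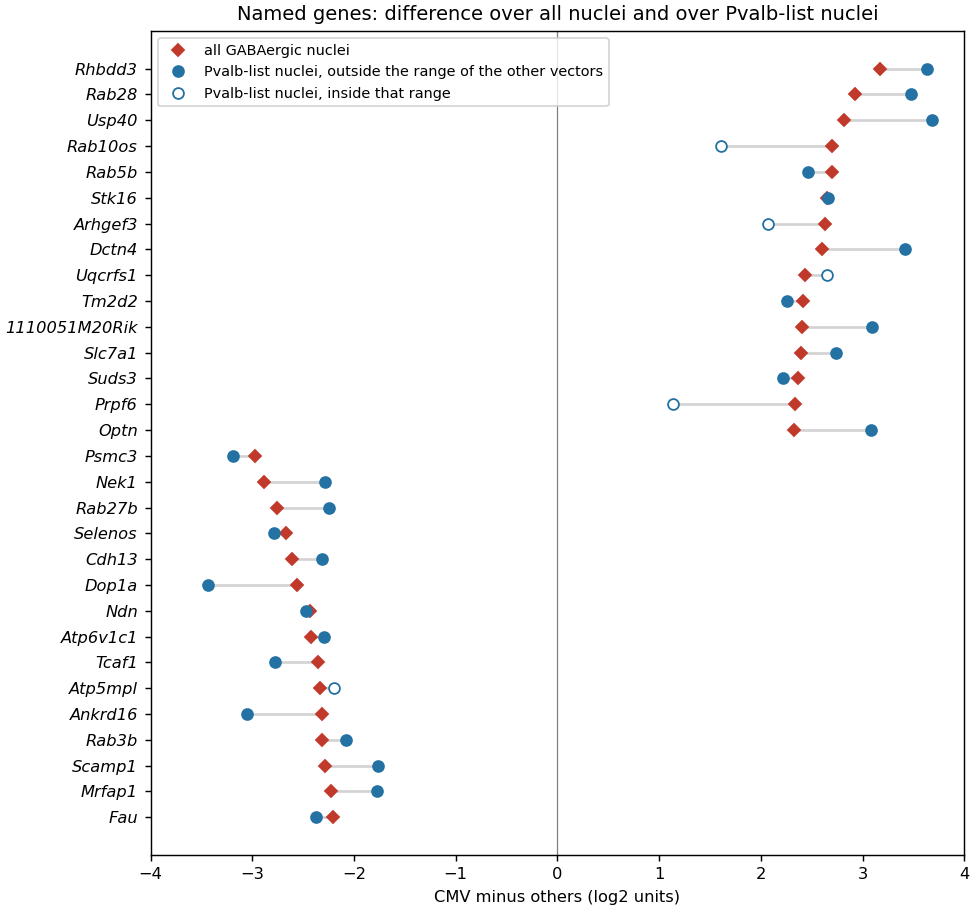
Difference, CMV minus the other vectors in log2 units, for the 30 named genes over all GABAergic nuclei (red diamonds) and over Pvalb-list nuclei (blue circles, open where CMV came inside the range of the other vectors). All 30 circles lie on the same side of 0 as their diamonds, and 5 are open.

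Lists of genes tied to the promoter, to AAV and to interneuron function were then read. Leaving out the genes of the selection rule and the lists taken from an earlier comparison of CMV, 162 genes of 30 lists passed the filter on level. Of these 11 were apart and higher and 11 apart and lower, 13.6% in either direction next to 14% of all genes tested. The lists as a whole therefore held no more genes apart than the background, and their members are given as values. In Pvalb-list nuclei 8 of these 22 genes remained apart: Tmem132c, Sox6, Setdb1, Dusp1, Mat2a, Kcnc2, Gria3 and Grin2d. The other 14 did not, whatever the size of their difference there. Of all genes apart, 231 of the 490 higher and 230 of the 488 lower ones remained apart in those nuclei, so the lists kept no larger share. Tmem132c is among the markers that assigned the nuclei.

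None of the factors that bind the CMV enhancer was apart. Of the 16 on the list 8 passed the filter, with a median difference of 0.09. Creb1, the cyclic AMP-responsive factor, was at 1.83 with CMV and 0.34 to 2.93 with the others, and Atf2, of the same family, at 4.07 against 2.24 to 4.16. Rela and Nfkb1, subunits of NF-kappaB, were at 0.65 and 0.94 and inside the range of the others. Atf1 had no read in any CMV nucleus and reads in 37 of 188 others, but its level was also 0 in at least 1 other vector.

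Over all nuclei, genes of promoter silencing stood on both sides. Of 15 that passed the filter, 2 were apart and higher and 2 apart and lower, with a median of -0.29. In Pvalb-list nuclei none of the list was apart and higher and 3 were apart and lower, with a median of -0.45. Atrx, a chromatin remodeller that deposits histone H3.3 in heterochromatin, was at 8.04 ± 2.19 against 6.08 to 7.65 (difference 1.15), with reads in 18 of 19 CMV nuclei, and its difference of 0.99 in Pvalb-list nuclei was no longer apart. The deacetylase Sirt1 was at 2.68 against 0.85 to 2.31 (1.35), a difference that was -0.06 in Pvalb-list nuclei. Setdb1, a methyltransferase for histone H3 lysine 9, was at 0.67 against 1.25 to 2.81 (-1.43; -2.12 in Pvalb-list nuclei). Trim28, the corepressor that recruits Setdb1, was at 1.39 and Mphosph8, a subunit of the HUSH complex, at 2.37. The lowest other vectors were at 1.20 and 2.35, so neither of these was apart. The DNA methyltransferase genes Dnmt1 (0.19 against 0.47 to 2.34, -0.90) and Dnmt3a (3.33 against 1.65 to 3.25, 0.92) lay outside the range but under a difference of 1. The list summed to 1611 CPM with CMV and 1640 to 1995 CPM with the others.

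Histones and their chaperones were read next, since the reporter is a fusion to histone H2B. Of 12 that passed, Nap1l1, a chaperone of H2A and H2B, was at 6.21 ± 3.42 against 3.03 to 5.44 (1.95; 0.76 in Pvalb-list nuclei). Ssrp1, a subunit of the FACT chaperone, was at 3.58 against 1.26 to 3.3 (1.16; 0.16 in Pvalb-list nuclei). None was apart and lower, and the median was -0.15. The H3.3 gene H3f3b was at 4.32 against 3.72 to 6.68. The summed level of the list was 1902 CPM with CMV and 2084 to 2553 CPM with the others.

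Genes of AAV entry and genome processing showed no member apart among 8 that passed, with a median of -0.23. AU040320, the gene of the AAV receptor, was at 2.10 against 1.03 to 4.23, and Gpr108, which AAV needs after entry, at 1.73 against 0.65 to 3.62. Of 19 measured genes of nucleic acid sensing and the interferon response 3 passed the filter and none was apart, while 14 were at 0 with CMV, among them Cgas, Irf7, Ifit1 and Isg15. B2m was at 1.20 against 0.54 to 2.01. The list summed to 283 CPM with CMV and 120 to 359 CPM with the others.

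Among 7 genes of the p53 response that passed, the apoptosis gene Bax was apart and higher by the narrowest margin, at 4.90 against 2.29 to 4.89 (1.04; 0.10 in Pvalb-list nuclei). The median of that list was -0.34, and Trp53 and Mdm2 lay inside the range. Of 12 genes of the unfolded protein and heat shock responses, Pdia4, a protein disulfide isomerase, was at 3.17 against 0.27 to 2.81 (1.92). In Pvalb-list nuclei its difference was 2.36, but it came inside the range of the others. The chaperone Hsp90ab1 was at 9.30 ± 2.53 against 6.26 to 9.16 (1.52; 0.52 in Pvalb-list nuclei). Hspa5, the chaperone that senses unfolded protein, was at 5.97 against 4.12 to 7.46, and the list's median was 0.27.

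Of 5 immediate early genes that passed, Junb was at 0.26 against 0.47 to 3.65 (-1.35) and the phosphatase Dusp1 at 1.19 against 1.67 to 3.94 (-1.48). In Pvalb-list nuclei the differences were -1.24 and -2.36, and Dusp1 remained apart while Junb came inside the range. Fos, at 2.63 against 0.12 to 2.96, and Egr1 were not apart. Among 10 abundant cytoplasmic transcripts, read as a sign of cytoplasm sorted with the nuclei, the ferritin light chain gene Ftl1 alone was apart, at 3.72 against 3.99 to 6.54 (-1.24). The list summed to 2037 CPM, inside the 1872 to 2876 CPM of the others.

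The genes that define the cells themselves differed little. Of the 12 GABAergic identity genes none was apart, although Gad1 and Gad2 chose the nuclei. Slc32a1, the vesicular GABA transporter, was at 1.88 against 0.59 to 2.18. In the MGE lineage, Sox6 was at 3.36 against 3.52 to 6.62 (-1.24), while Lhx6, Satb1 and Maf were higher than the mean of the others without being apart. The difference of Sox6 in Pvalb-list nuclei was -1.10. Of the 8 Pvalb markers, which also assigned the nuclei, Tmem132c was apart, at 2.44 against 0.47 to 2.24 (1.25).

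Genes of fast-spiking physiology gave 1 member apart of 13. Kcnc2, a subunit of the fast delayed-rectifier potassium channels of Pvalb cells, was at 3.95 ± 3.98 against 4.78 to 6.29 (-1.48), with a difference of -2.50 in Pvalb-list nuclei. Its partner Kcnc1 was at 8.25 against 5.82 to 9.73 and the sodium channel gene Scn1a at 7.79 against 6.10 to 8.54, both inside the range. Of 5 perineuronal net genes that passed none was apart. The summed level of that list was nevertheless above all other vectors, at 550 CPM against 206 to 440. Hapln4, a link protein of the nets, was at 2.78 against 0.39 to 2.83, and Acan, their main proteoglycan, was at 0 with CMV.

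Receptor genes gave 4 members apart, 3 of them lower with CMV. Gria1 and Gria3, subunits of AMPA receptors, were at 5.36 against 5.97 to 7.67 (-1.67) and 4.65 against 4.70 to 8.09 (-1.51). Grin2d, an NMDA receptor subunit of interneurons, was at 3.02 against 0.98 to 2.68 (1.06). These were 3 of the 16 glutamate receptor genes that passed, with a median of -0.29. Gabrb2, a subunit of GABA-A receptors, was the 1 gene apart among 12 GABA receptor genes, at 1.47 against 1.55 to 3.64 (-1.29). The differences in Pvalb-list nuclei were -1.29 for Gria1, -2.48 for Gria3, 1.23 for Grin2d and -1.89 for Gabrb2. Gria3 and Grin2d remained apart there, while Gria1 and Gabrb2 came inside the range of the others. The GABA receptor genes Gabra4 (2.74) and Gabrd (1.12) were apart and higher in those nuclei, though not over all nuclei.

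**Figure D5:**
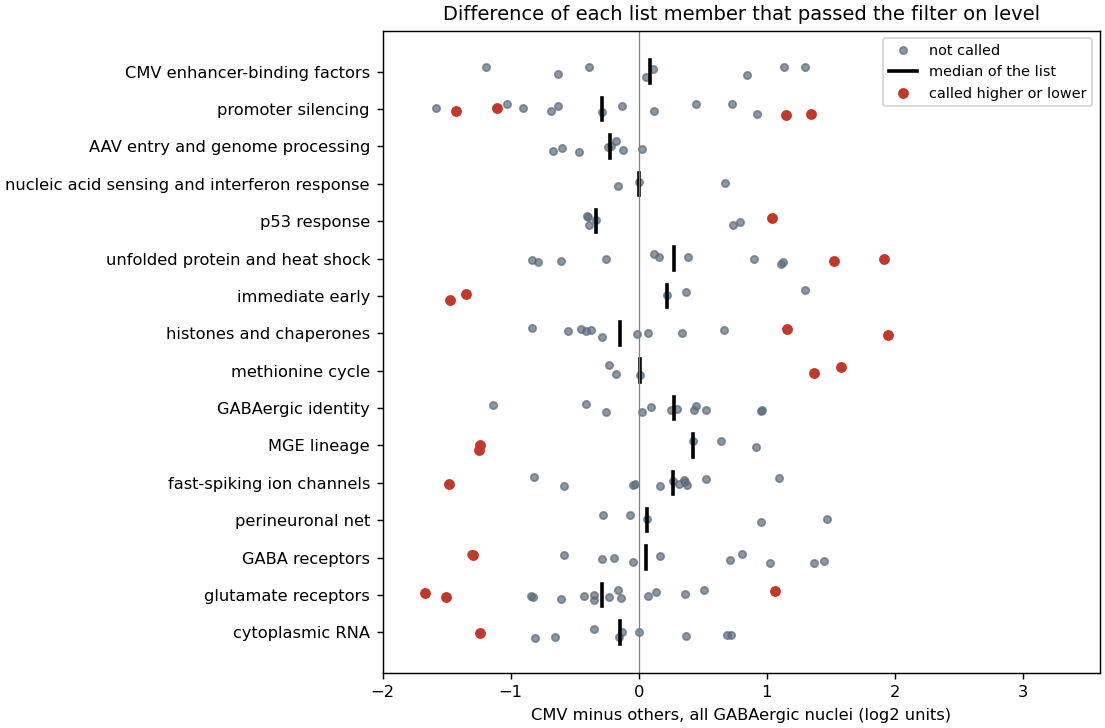
Difference, CMV minus the other vectors in log2 units, of each gene of 16 lists that passed the filter on level; red points were apart from all 9 other vectors, grey points were not, and black bars are list medians. Medians lie between -0.34 for the p53 response and 0.43 for the MGE lineage, and red points stand on both sides of 0.

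Mat2a, the enzyme that makes the methyl donor S-adenosylmethionine, differed in how evenly it was read. It had reads in all 19 CMV nuclei, at 10.25 ± 0.90, and in 164 of 188 others, whose vector levels were 6.93 to 10.23 with a median of 8.77. The difference was 1.37 over all nuclei and 1.27 in Pvalb-list nuclei, and the highest other vector was nearly level with CMV. Amd1, which draws on the same metabolite for polyamine synthesis, was at 2.74 against 0.31 to 1.86 (1.58). The other 3 genes of the methionine cycle that passed (Mat2b, Ahcyl1 and Ahcyl2) differed by -0.23 to 0.01, and the median was 0.01.

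Mat2a also heads a list of 10 genes that an earlier comparison with hSyn1, a neuronal promoter, had found higher with CMV. Against the 9 vectors used here 7 of the 10 were apart and higher: Mat2a, Asah1, Vbp1, Prpsap1, Mbip, Emg1 and Pdss1. Asah1, the acid ceramidase, was at 6.77 ± 3.44 against 3.19 to 5.42 (2.09), and Mbip at 5.88 against 2.45 to 5.13 (2.04). Of the 10 genes lower with CMV in that comparison, Mrfap1, Myo9a, Chl1 and Zdhhc17 were apart and lower. In Pvalb-list nuclei Prpsap1, Emg1, Pdss1, Myo9a and Zdhhc17 came inside the range of the other vectors. Chl1, a cell adhesion molecule, was at 1.65 against 2.96 to 4.28 (-1.92). Of all genes tested 7.01% were apart and higher and 6.99% apart and lower. The earlier comparison used the same CMV nuclei, so these counts are no independent evidence of direction or of being apart. None of the 9 other vectors is hSyn1.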

How the data were processed

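The deposited table holds raw read counts per gene for single nuclei, without molecular identifiers, so PCR copies are counted separately. STAR 2.7.2a and mm10 are named in the submitters' processing notes; the counter, its strand setting and its use of introns were not given in the sources used here. Of 2501 columns, 544 were matched to samples by library name and used, and 1957 columns were not used. Ensembl identifiers gave symbols for 32158 of 32285 gene rows, and the rest held 0.102% of the reads. Positions come from GENCODE M21 on mm10.

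Counts were scaled to CPM per nucleus, and log2 was taken after adding a pseudocount of 1 (Python 3.11.15, numpy 2.4.6, pandas 2.3.3, scipy 1.17.1). Nuclei were averaged per vector, and the other vectors got equal weight. Scaling by TMM (edgeR 4.0.16) and by median of ratios (DESeq2 1.42.0) were alternatives and gave no test. Each vector is 1 sample, so neither p-values nor standard errors are given. Named genes are the 15 with the largest difference in each direction among those apart and differing by at least 2-fold in summed CPM; Gad1, Gad2, Slc17a7 and mitochondrially encoded genes could not enter. Members of the lists are named in addition. The nuclei, the lists and the rules were chosen with earlier results of these data known. Doublets were not called, since each library came from 1 sorted nucleus. The calculations were also tested on simulated data. Some members of the lists are counted in the totals but not reported here by name.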

Additional observations from a re-analysis of the deposited data

How the results depend on the processing

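The 30 named genes kept their sign under each alternative computed for them, and stayed apart except the 6 named above for Pvalb-list nuclei or Y-linked reads. Several settings could not have shown otherwise. Leaving out other vectors cannot bring a gene inside the range of those that remain, and can change only the size of its difference. The filters on level leave a gene's difference as it is, and named genes with a mean level under 3 were not among the genes tested at that limit. The settings without the CMV nucleus with the most or the fewest genes were run for the counts only. The summed CPM is part of the choice of these genes. Counts of genes apart fell with a pseudocount of 10, which gives less weight to nuclei without a read. It left 151 higher (2.16%) and 100 lower genes (1.43%). A mean level of at least 3 left 147 and 147 of 1950 genes. That is 7.54% in each direction, next to 7.01% and 6.99% in the main result, because fewer genes were tested. Leaving out each other vector in turn gave 492 to 579 higher and 491 to 559 lower genes. In all other settings the counts stayed within 1.5 times, but not always the genes: log2 of summed CPM gave 467 higher and 509 lower genes, of which 217 and 289 were shared with the main result. The counts were 427 higher and 492 lower after each vector was given the CMV share of Pvalb-list nuclei, and 537 and 582 with Y-linked reads only. Those 2 settings were added after seeing the data. Reweighting by all 4 types was not run, because no vector had enough nuclei of each. At least 15 nuclei per vector, or 100000 reads per nucleus, left out nothing.

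List medians moved by at least the SD of the median between the other vectors as follows, and the cause was not tested. On log2 of summed CPM, which shifts the median of all genes by 0.17, they were 2.17 (Vip/Sncg), 2.01 (CGE), -0.96 (glutamatergic), 0.25 (oligodendrocyte), 0.57 (interferon), -0.32 (immediate early), 0.35 (methionine), 1.06 (perineuronal net), and 0.59 and -0.53 (genes higher and lower than hSyn1 before). With a mean level of at least 3 they were 1.14 (CMV enhancer factors), 0.45 (silencing), 1.04 (p53), 0.57 (methionine), 0.95 (perineuronal net) and 0.49 (GABA receptors). In Pvalb-list nuclei they were 0.74 (Sst), 0.12 (glutamatergic), 0.36 (interferon), 0.84 (methionine) and 0.010 (glutamate receptors). With Y-linked reads only they were -0.050 (silencing), 0.29 (interferon) and 0.66 (methionine). Several of these lists rest on 1 to 5 genes. No paired analysis was possible because the numbers in the labels only name nuclei and each vector is 1 sample. With 19 CMV nuclei, a share of 0 allows up to 15.8% (3 nuclei).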

Other observations

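CMV nuclei were also sequenced in a second set of libraries, where all 16 labelled nuclei passed the limits on depth. Of these 14 had Slc17a7 at 10 CPM or more, 3 had Gad1 plus Gad2 at 10 CPM or more, and 1 met the GABAergic rule. That nucleus had Lamp5 at 5370 CPM and no read of Pvalb, Sst or Vip. It was not used in any comparison. Among mitochondrially encoded transcripts 1 of 13 passed the filter on level: mt-Co1 was at 2.02 in CMV GABAergic nuclei and at 0.37 to 1.78 in the other vectors, outside their range but under a difference of 1.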
